A study of Mus musculus with 24 samples.

Results

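The lipogenesis genes described here are 10 genes of fatty acid synthesis, taken by name: Fasn, Acaca, Acacb, Acly, Scd1, Elovl6, Me1, Srebf1, Mlxipl and Thrsp. They are 10 of the 22911 mouse genes that the array probes name, and 18 of the 56605 probes on the array match them. Each gene was read from its brightest probe over all arrays, and these 10 probes were well above background on all 24 arrays. The RNA came from liver, white adipose tissue (WAT), kidney and lung of male C57BL/6J mice aged 10 weeks (young) or 90 weeks (aged), with 3 mice for each tissue and age. All groups share the strain and the sex, and the labels give no treatment and no genetic change. The aged livers carry the numbers 1, 2 and 4, and the labels do not say which fat depot WAT is. Nothing says whether 1 mouse gave several of the tissues. The question behind the arrays is how gene expression in these organs differs between young and aged mice.

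Lipogenesis turns carbohydrate into fatty acids. Citrate that leaves the mitochondria is cleaved to acetyl-CoA by Acly, carboxylated to malonyl-CoA by Acaca and Acacb, and built into palmitate by Fasn, with NADPH from Me1 and other enzymes. Elovl6 then lengthens the chain and Scd1 introduces the first double bond, and the program is driven by insulin through Srebf1, the gene of SREBP-1, and by glucose through Mlxipl, the gene of ChREBP. Thrsp (Spot 14) is a nuclear and cytosolic protein that promotes the pathway, and liver and adipose tissue are its main sites in the mouse.

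Promoter sequence was at hand for 9 of the 10 genes, in 13 windows of 300 bases around a transcription start (RefSeq, assembly GRCm38.p6), and Scd1 had none. Motifs were searched on both strands. The sterol regulatory element bound by SREBP, TCACNCCAC, stood in 1 of the 13 windows and in 1.24% of all 32851 windows. The E-box CACGTG, which reads the same on both strands, stood in 1 of 13 and in 7.15% of all. The CCAAT box, CCAAT, stood in 8 of 13 windows, of 7 genes, and in 37.4% of all, and the GC box, GGGCGG, in 5 of 13 and in 35.7% of all. The 150 bases before the start are shown for Fasn and Thrsp, which had the largest mean difference between ages in WAT and in lung, and for both starts of Mlxipl, which alone held the sterol regulatory element and the E-box. Capitals mark the motifs. In Fasn (chr11:120824548-120824697, minus strand) and Thrsp (chr7:97417551-97417700, minus strand) they are CCAAT boxes or their reverse, ATTGG, which overlap in the CCAATTGG of Fasn. In Mlxipl start 1 (chr5:135089740-135089889, plus strand) they are the E-box and a GC box, and in Mlxipl start 2 (chr5:135106741-135106890, plus strand) the sterol regulatory element.
Fasn: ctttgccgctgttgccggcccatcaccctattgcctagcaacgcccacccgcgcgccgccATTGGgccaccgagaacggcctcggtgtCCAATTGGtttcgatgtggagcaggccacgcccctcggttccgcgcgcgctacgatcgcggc
Thrsp: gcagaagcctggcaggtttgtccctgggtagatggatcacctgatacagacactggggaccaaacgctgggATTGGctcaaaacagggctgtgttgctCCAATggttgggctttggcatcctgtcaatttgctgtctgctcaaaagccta
Mlxipl start 1: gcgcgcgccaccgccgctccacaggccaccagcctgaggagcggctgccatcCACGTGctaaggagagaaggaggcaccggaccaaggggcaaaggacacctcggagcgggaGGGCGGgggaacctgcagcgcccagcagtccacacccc
Mlxipl start 2: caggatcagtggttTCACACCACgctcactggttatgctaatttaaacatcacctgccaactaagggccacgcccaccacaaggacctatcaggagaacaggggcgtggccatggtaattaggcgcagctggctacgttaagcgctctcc
These matches describe the letters only.

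Levels are log2 values of a probe's processed signal relative to the 75th percentile of its array, so that 0 is the signal at that percentile and a difference of 1 is a doubling. The 6 arrays of a tissue, young and aged alike, shared 1 slide and scan, so ages were compared within a slide, whereas tissue and slide cannot be told apart. The share of probes well above background ran from 58.6% to 71.1% over the arrays. Markers of hepatocytes, adipocytes, kidney tubules and lung epithelium were highest in the tissue they name. WAT of young mouse 1 stood apart: its 5 epididymis markers summed to 780 times the 75th percentile, against 0.381 to 0.99 on the other 5 WAT arrays. The lung of aged mouse 1 stood apart as well, with 6 hepatocyte markers summing to 245 against 2.99 to 19.6 on the other 5 lung arrays. Leaving out either array left the count of lipogenesis genes that differed with age at 0 in its tissue. Leukocyte markers were higher in aged mice for 5 of 8 in liver, 5 of 8 in WAT, 8 of 8 in kidney and 2 of 8 in lung (limma, adjusted p under 0.05). Of all genes tested, 10.6% were called higher in liver, 1.99% in WAT, 20.7% in kidney and 2.70% in lung.

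In young mice the 10 genes were highest in WAT or liver, with the exception of Me1, and lowest in kidney or lung. Fasn reached 8.73 ± 0.13 (SD, n = 3 here and below) in WAT, 6.26 ± 0.28 in lung, 6.20 ± 0.32 in liver and 3.74 ± 0.07 in kidney. WAT was thus 5.54-fold above lung, lung and liver did not differ beyond their spread (adjusted p = 0.927), and liver was 5.47-fold above kidney. Acaca, the cytosolic acetyl-CoA carboxylase, followed the same outline, at 6.17 ± 0.17 in WAT, 4.03 ± 0.13 in liver, 3.29 ± 0.36 in lung and 1.47 ± 0.04 in kidney. Its WAT level was 4.43-fold above liver, and the difference between liver and lung was not called (limma, adjusted p = 0.131). The values of these tissues did not overlap, at 4.16, 3.90 and 4.02 in liver and 3.64, 3.30 and 2.92 in lung. The p-values between tissues come from a fit that pools a gene's spread over all tissues and ages, the wider aged WAT included. Acly, which makes acetyl-CoA from citrate, spanned the narrowest range, from 6.13 ± 0.60 in WAT to 4.58 ± 0.06 in kidney, and among its neighbours liver and lung alone differed (2.0-fold), a direction that turned under quantile normalization (-0.01) and spike-in scaling (-0.39). The Acly call was also lost without young number 1, 2 or 3 (adjusted p = 0.131, 0.187 and 0.0593).

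Other enzymes placed liver beside or above WAT. Scd1, the stearoyl-CoA desaturase, stood at 8.26 ± 0.61 in liver and 8.10 ± 0.10 in WAT, which did not differ beyond their spread, and was 6.44-fold higher in WAT than in lung and 4.72-fold higher in lung than in kidney. Acacb, the mitochondrial carboxylase whose product restrains fatty acid oxidation, stood at 3.88 ± 0.59 in liver and 3.10 ± 0.43 in WAT and was 5.27-fold higher in WAT than in lung. Elovl6 was 3.59-fold higher in liver (3.68 ± 0.18) than in WAT (1.83 ± 0.82), the next tissue, a call that was lost on spike-in scaling (1.42, adjusted p = 0.0753) and without young number 2 (0.113) or 3 (0.126). Me1, the cytosolic malic enzyme, was the one gene with its highest mean in kidney (6.39 ± 0.12), where it did not differ beyond the spread from WAT (6.28 ± 0.26), and its lowest in lung (3.98 ± 0.27).

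The regulators differed in their tissues. Srebf1 was near its highest in both WAT (5.43 ± 0.09) and liver (5.29 ± 0.37), then 2.49-fold lower in lung than in liver, a direction that turned on spike-in scaling (-0.07), and lowest in kidney (2.85 ± 0.19). Mlxipl was highest in liver (6.27 ± 0.17), 2.72-fold lower in kidney (a call lost under quantile normalization and on spike-in scaling, adjusted p = 0.0504 and 0.0731), and lowest in lung (-0.14 ± 0.43), which lay 18.9-fold under WAT (4.10 ± 0.45). Thrsp was high in WAT (7.56 ± 0.16) and liver (6.73 ± 0.31), 17.0-fold lower in lung than in liver, and lowest in kidney (0.21 ± 0.19).

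The size of several of these differences depended on the scaling. On spike-in scaling lung moved up against the other tissues: WAT over lung went on the log2 scale from 2.47 to 1.5 for Fasn, from 2.69 to 1.72 for Scd1, from 2.40 to 1.43 for Acacb and from 4.24 to 3.27 for Mlxipl. Liver over lung went from 4.09 to 2.70 for Thrsp (3.18 under quantile normalization). These 5 differences stayed called. For Me1, liver over lung (1.57) was not called on spike-in scaling (0.18), under quantile normalization (0.66) or when young number 1, 2 or 3 was left out in turn (adjusted p of 0.0955 to 0.136). For Srebf1, liver over lung was not called under quantile normalization either (0.46). Lung over kidney grew from 1.81 to 2.76 for Acaca, from 2.24 to 3.19 for Scd1, from 1.12 to 2.07 for Srebf1 and from 2.43 to 3.38 for Thrsp.

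Over the 6 pairs of tissues in young mice, a limma fit of all 24 arrays called the genes that differ at an adjusted p under 0.05. Between liver and WAT 4 of 10 were called, where 65.8% of all 34753 genes tested were: Fasn and Acaca were higher in WAT, Elovl6 and Mlxipl higher in liver. WAT exceeded lung for 10 of 10 (51.6% of all genes called) and kidney for 7 of 10 (54.3%). These shares of all genes and those that follow count both directions, unlike the counts of members. Liver exceeded kidney for 9 of 10 (54.1%) and lung for 8 of 10 (71.8%), and lung exceeded kidney for 5 and lay below it for 2, Me1 and Mlxipl (61.9%). Of the 30 differences between neighbours in the order of a gene's levels, 16 were called. The order rests on the brightest probe: the second probe of Mlxipl was nearly flat over the tissues (0.07 to 0.82 in young mice), and that of Acacb put lung (1.56) above WAT (0.81) and kidney (0.25).

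In aged mice the differences in Fasn and Acaca between liver and WAT were no longer called. Fasn stood at 6.44 ± 0.27 in liver and 6.26 ± 2.10 in WAT, and Acaca at 4.58 ± 0.23 and 4.62 ± 1.48 (adjusted p = 0.817 and 0.948). Elovl6 remained 8.56-fold and Mlxipl 4.47-fold higher in liver than in WAT, the 2 of 10 genes called at 90 weeks, where 53.2% of all genes were. Liver exceeded kidney for 8 of 10 genes (52.9% of all genes called, in either direction here and below) and lung for 7 (60.0%). WAT exceeded kidney for 6 (41.8%) and lung for 7 (47.7%), and lung exceeded kidney for 4 and lay below it for 2 (50.6%). Thrsp, called between lung and kidney in young mice, was not called in aged mice (0.30, adjusted p = 0.612).

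**Figure D1:**
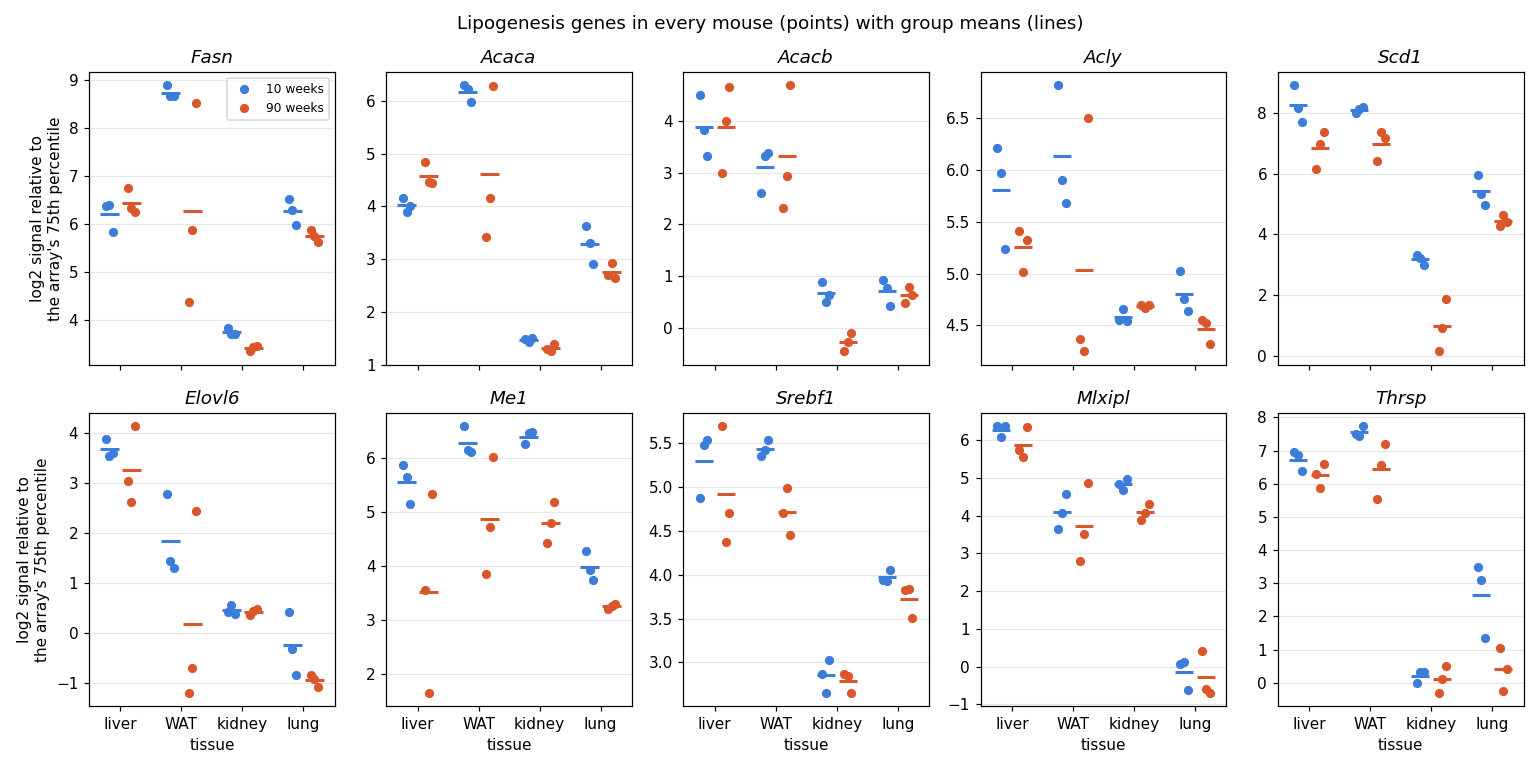
Level of each lipogenesis gene on each of the 24 arrays, as log2 of the signal over the 75th percentile (vertical axis, its own range for each gene), in liver, WAT, kidney and lung, with 1 point per mouse, blue for 10 weeks and orange for 90 weeks, and a line at the mean of each group. The young WAT points lie close together for Fasn (8.65 to 8.89), whereas the aged ones spread from 4.37 to 8.52.

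In the liver, 1 of the 10 genes changed with age. Scd1 was lower in every aged mouse than in any young one, at 8.92, 8.17 and 7.70 in the young livers and 6.14, 6.98 and 7.38 in the aged ones. It fell by 1.43 ± 0.41 (SE) on the log2 scale, or 2.70-fold (limma, adjusted p = 0.0412), where 27.4% of all 27869 genes tested in the liver were called and 16.8% were called lower. Scaling the arrays to spike-in spots kept the call (adjusted p = 0.0277), and quantile normalization lost it (-1.13, adjusted p = 0.0544). It was also lost without young mouse 1 (adjusted p = 0.113), young mouse 2 (0.103), aged mouse 1 (0.0917) or aged mouse 2 (0.072).

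Me1 had a larger mean difference and a wider spread. It stood at 5.86, 5.64 and 5.14 in the young livers and at 3.55, 1.65 and 5.34 in aged mice 1, 2 and 4. Aged mouse 4 lay within the young range and the other 2 lay far below it, a mean difference of -2.03 ± 0.83 (adjusted p = 0.105). Without aged mouse 4 the difference was -2.95 and was called (adjusted p = 0.02).

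Acaca went the other way. Its values were 4.16, 3.90 and 4.02 in young livers and 4.85, 4.46 and 4.44 in aged ones, with no overlap, a difference of 0.56 ± 0.18 that did not pass (adjusted p = 0.0571). With quantile normalization (0.79, adjusted p = 0.0354) and with another background correction (0.56, adjusted p = 0.0344) it passed. The 3 other probes of Acaca differed less, by 0.19, 0.24 and 0.21. Fasn, the next enzyme of the chain, did not differ beyond its spread (0.24 ± 0.23, adjusted p = 0.451), nor did Acacb (0.00 ± 0.47, adjusted p = 0.997).

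The 5 remaining genes had negative mean differences in the liver, from -0.37 for Srebf1 to -0.56 for Acly, and none was called. Over the 10 genes, 7 means were lower and 3 higher, the median difference was -0.40 beside -0.20 over all genes tested, and young and aged mice did not overlap for 2, Scd1 (aged below, as for 32.9% of all genes) and Acaca (aged above, as for 16.9%), against 49.8% of all genes in either direction. In whole tissue, fewer cells of a type and less RNA per cell cannot be told apart. Hepatocyte markers summed to 4497 to 4976 in young and 3254 to 3905 in aged livers, and leukocyte markers to 14.7 to 17.0 and 60.3 to 77.1. Their part in these values was not tested.

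In WAT 7 of the 10 means were at least 2-fold lower in aged mice, no gene was called, and the aged mice differed widely among themselves. Fasn stood at 8.89, 8.65 and 8.66 in the 3 young mice and at 4.37, 5.87 and 8.52 in the 3 aged mice. Aged mouse 1 was thus 20.5-fold below the young mean, while aged mouse 3 was just under the lowest young mouse. The mean difference was -2.48 ± 0.99 (limma, adjusted p = 0.251), and 2.56% of all 30042 genes tested in WAT were called, 0.566% lower and 1.99% higher.

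Aged mouse 3 stood apart from the other 2 aged mice for 3 more enzymes. Acaca was at 6.30, 6.23 and 5.98 in young WAT and at 3.42, 4.16 and 6.28 in aged WAT (-1.55 ± 0.71, adjusted p = 0.3). Acly was at 6.82, 5.90 and 5.68 and then at 4.37, 4.25 and 6.50 (-1.09 ± 0.67, adjusted p = 0.42). Elovl6 was at 2.78, 1.43 and 1.29 and then at -1.20, -0.72 and 2.43 (-1.66 ± 1.01, adjusted p = 0.416). In these 3 genes aged mice 1 and 2 lay below all young mice and aged mouse 3 within their range.

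Me1 kept this order with a smaller gap, at 6.59, 6.15 and 6.12 in young mice and 3.85, 4.71 and 6.02 in aged mice (-1.42 ± 0.55, adjusted p = 0.235). Thrsp was at 7.49, 7.44 and 7.73 and then at 5.56, 6.56 and 7.19 (-1.12 ± 0.42, adjusted p = 0.224). For both, all aged values lay below all young ones.

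Scd1 and Srebf1 were lower in all 3 aged mice, mouse 3 included. Scd1 was at 7.99, 8.13 and 8.19 in young WAT and at 6.42, 7.37 and 7.17 in aged WAT (-1.12 ± 0.28, adjusted p = 0.106). Srebf1 was at 5.36, 5.42 and 5.53 and then at 4.70, 4.99 and 4.45 (-0.72 ± 0.19, adjusted p = 0.122), with aged mouse 3 the lowest. Mlxipl (-0.38 ± 0.55, adjusted p = 0.744) and Acacb (0.22 ± 0.62, adjusted p = 0.879) overlapped between ages, and their highest values, 4.85 and 4.69, were those of aged mouse 3.

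Counted over the 10 genes in WAT, 9 means were lower in aged mice and the median difference was -1.12 beside -0.05 over all genes. All aged values lay below all young ones for 5 of 10, Fasn, Scd1, Me1, Srebf1 and Thrsp, against 15.0% of all genes (28.7% in either direction), and 5 of 10 had an unadjusted p under 0.05 (the methods' t-test gave 2, and 0 after adjustment). All 10 genes were below the young mean in aged mouse 1 (median -1.88) and in aged mouse 2 (median -1.28), and 5 of 10 in aged mouse 3 (median -0.05). The SD was larger in aged than in young WAT for 10 of 10 genes, with medians of 1.16 and 0.22. It was larger in aged mice for 8 of 10 genes in liver (0.52 and 0.34), 5 in kidney (0.15 and 0.13) and 2 in lung (0.15 and 0.32). The share over all genes was not computed for the SDs, the 2-fold lower means or the unadjusted p. Whether these counts are particular to the 10 genes is therefore not known. The genes also varied together among mice, so the counts are not independent.

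Adipocyte markers in WAT summed to 1575 to 2139 times the 75th percentile in young and 1439 to 2103 in aged mice, and 0 of 8 were called (limma, and 0 at an unadjusted p under 0.05). They were lowest in aged mouse 1 (1439), then 1701 in mouse 2 and 2103 in mouse 3, and Fasn had the same order among these 3 mice. Leukocyte markers summed to 14.3 to 44.7 in young and to 338, 145 and 212 in aged mice 1, 2 and 3. Hepatocyte markers summed to 153 to 347 in young WAT, and 2 of 5 tested were called lower with age. They summed to 26.9, 83.9 and 394 in aged mice 1, 2 and 3, again in the order of Fasn. The order did not hold among young mice. There mouse 1 had the lowest adipocyte and hepatocyte sums (1575 and 153) and the highest Fasn (8.89). Brown adipocyte markers summed to 9.99 to 13.4 in young WAT and to 16.3, 17.4 and 37.4 in aged mice 1, 2 and 3. Of the 6, 1 was called higher with age. The part of all these markers in the lower lipogenesis levels was not tested. Without aged mouse 3, Acaca passed (-2.38, adjusted p = 0.0486) and Fasn did not (-3.61, adjusted p = 0.0565), and without young mouse 1, which carried the epididymis markers, 0 of 10 genes passed and Fasn stood at -2.40.

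**Figure D2:**
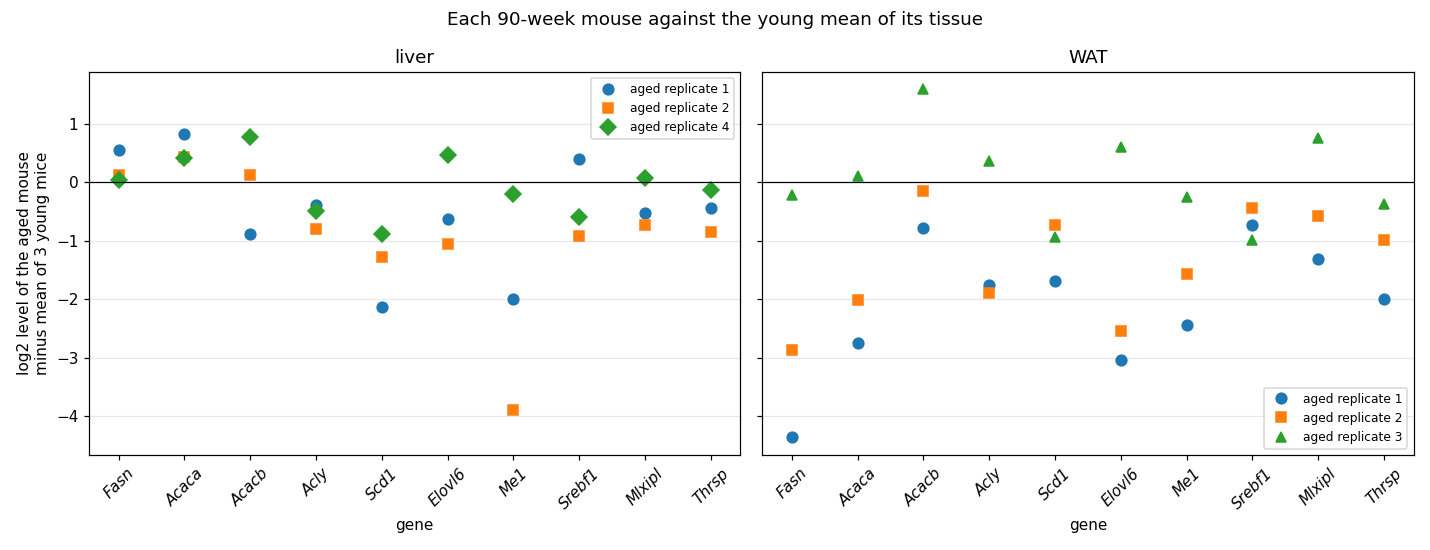
Log2 level of each aged mouse minus the mean of the 3 young mice (vertical axis) for the 10 lipogenesis genes (horizontal axis), in liver and in WAT, with 1 symbol per aged mouse and a line at 0 for the young mean. In WAT, mice 1 and 2 lie below 0 for all 10 genes, down to -4.36 for Fasn, and mouse 3 for 5 of them, and in liver mouse 2 has the lowest point, -3.90 for Me1.

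In the kidney, 5 of the 10 genes fell with age, where 63.2% of all 31485 genes tested were called and 42.5% were called lower, so that the members' share is near that of kidney genes at large. Scd1 was at 3.33, 3.21 and 3.0 in young kidneys and at 0.14, 0.90 and 1.87 in aged ones, and fell by 2.21 ± 0.42 (4.62-fold, limma, adjusted p = 0.00458). Me1 was at 6.25, 6.45 and 6.47 and then at 4.42, 4.79 and 5.18, and fell by 1.60 ± 0.20 (3.02-fold, adjusted p = 0.000937). In both genes all aged values lay below all young ones, and Scd1 and Me1 stayed called in all 16 alternative settings run.

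Acacb was at 0.89, 0.50 and 0.64 in young kidneys and at -0.46, -0.28 and -0.09 in aged ones, and fell by 0.95 ± 0.14 (adjusted p = 0.00185). Mlxipl was at 4.83, 4.68 and 4.96 and then at 3.89, 4.07 and 4.3, and fell by 0.74 ± 0.13 (adjusted p = 0.00397). That call was lost on scaling to spike-in spots (-0.35, adjusted p = 0.0803), and the second probe of Mlxipl changed by -0.15. Fasn fell by 0.34 ± 0.08 (adjusted p = 0.0118), and this direction turned under quantile normalization (0.01) and spike-in scaling (0.05). With all 24 arrays in the same fit, Fasn (adjusted p = 0.685), Acacb (0.115) and Mlxipl (0.156) were not called.

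Of the others, Acaca (-0.16), Elovl6 (-0.02), Srebf1 (-0.06), Thrsp (-0.11) and Acly (0.10) were not called in kidney, and the first 4 were positive on spike-in scaling (0.22, 0.36, 0.32 and 0.27). Aged kidneys lay below all young ones for 6 of 10 genes and above them for 1, Acly, against 47.5% and 23.2% of all genes (70.7% in either direction). Scaling shifts all kidney genes: their median difference was -0.23 as reported and 0.15 on spike-in scaling, against shifts from -0.20 to -0.09 in liver, from -0.05 to -0.04 in WAT and from -0.08 to -0.17 in lung. Relative to all genes, the members' median of -0.25 in kidney lay close to -0.23. On spike-in scaling 3 of the 10 genes were called lower and 1, Acly, higher, and under quantile normalization 4 lower and 1, Acly, higher. Kidney tubule markers, which were called lower for 6 of 6, summed to 1366 to 1615 in young and 564 to 902 in aged kidneys, and leukocyte markers to 4.17 to 4.60 and 32.7 to 54.3. Adipocyte markers summed to 12.7 to 14.4 and 18.3 to 32.8. Their part in these values was not tested.

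In the lung, all 10 means were lower in aged mice and no gene was called, where 5.57% of all 30312 genes tested were and 2.86% were called lower. Thrsp had the largest mean difference, from 3.48, 3.09 and 1.34 in young lungs to 1.05, -0.24 and 0.41 in aged ones (-2.23 ± 0.62, limma, adjusted p = 0.094). Scd1 went from 5.96, 5.34 and 4.95 to 4.29, 4.64 and 4.40 (-0.97 ± 0.27, adjusted p = 0.0893). Me1 went from 4.27, 3.92 and 3.74 to 3.19, 3.25 and 3.30 (-0.73 ± 0.15, adjusted p = 0.051). In all 3 genes the aged lungs lay below the young ones, and Me1 passed with another background correction (adjusted p = 0.031), on centring at the median of tested genes (0.0443) and with the mean of its probes (0.0445).

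The aged lungs lay below the young ones for 7 of 10 genes, against 24.2% of all genes (35.8% in either direction). An unadjusted p under 0.05 was found for 6 of 10 (4 by the methods' t-test, and 0 after adjustment). The share over all genes was not computed for the unadjusted p. The median difference was -0.52 beside -0.08 over all genes, with Fasn at -0.52 and Acaca at -0.53. Adipocyte markers were lower in aged lungs as well. Their sum was 142, 147 and 83.7 in young lungs 1 to 3 and 10.1, 8.77 and 33.5 in aged lungs 1 to 3. Among aged lungs, mouse 3 had the highest sum and the highest Me1 (3.30). Thrsp was highest there in mouse 1 (1.05) and Scd1 in mouse 2 (4.64). All 8 markers had lower means with age, and 3 were called. Of these, Cidec, a lipid droplet protein, fell by 1.53 and resistin (Retn) by 3.46 (adjusted p = 0.029 and 0.0346), both well above background on all 6 arrays. Perilipin 1 (Plin1, the third) and adiponectin (Adipoq) were well above background on all 3 young arrays and on 1 of 3 aged arrays. Lung epithelium markers summed to 1768 to 1833 in young and 1639 to 2353 in aged lungs. Brown adipocyte markers summed to 11.1 to 21.4 in young and 3.68 to 9.92 in aged lungs, and 0 of 5 tested were called. The part of adipocytes in the lung values was not tested. Without aged mouse 1, whose array carried hepatocyte markers, the differences were -2.55 for Thrsp, -0.90 for Scd1 and -0.70 for Me1.

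**Figure D3:**
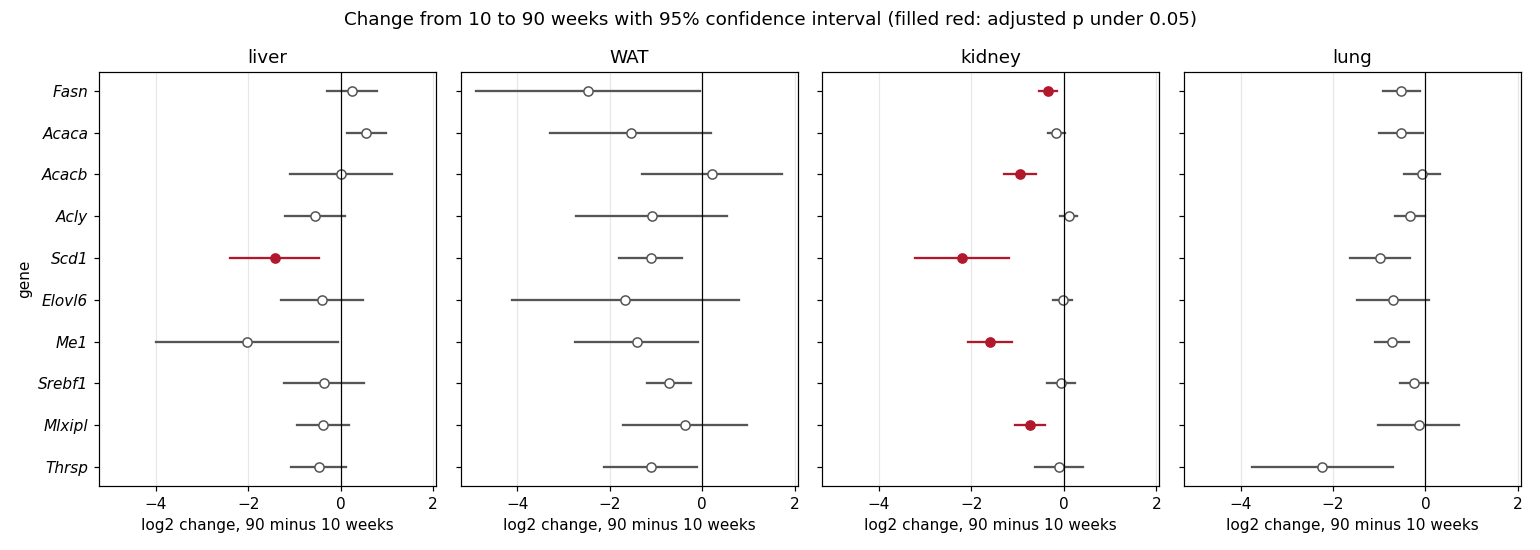
Log2 difference of the 90-week from the 10-week mean (horizontal axis, the same range in every panel) for the 10 lipogenesis genes (vertical axis) in liver, WAT, kidney and lung, with the 95% confidence interval as a line and filled red points where the adjusted p is under 0.05. Red points are Scd1 in liver and Fasn, Acacb, Scd1, Me1 and Mlxipl in kidney.

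**Figure D4:**
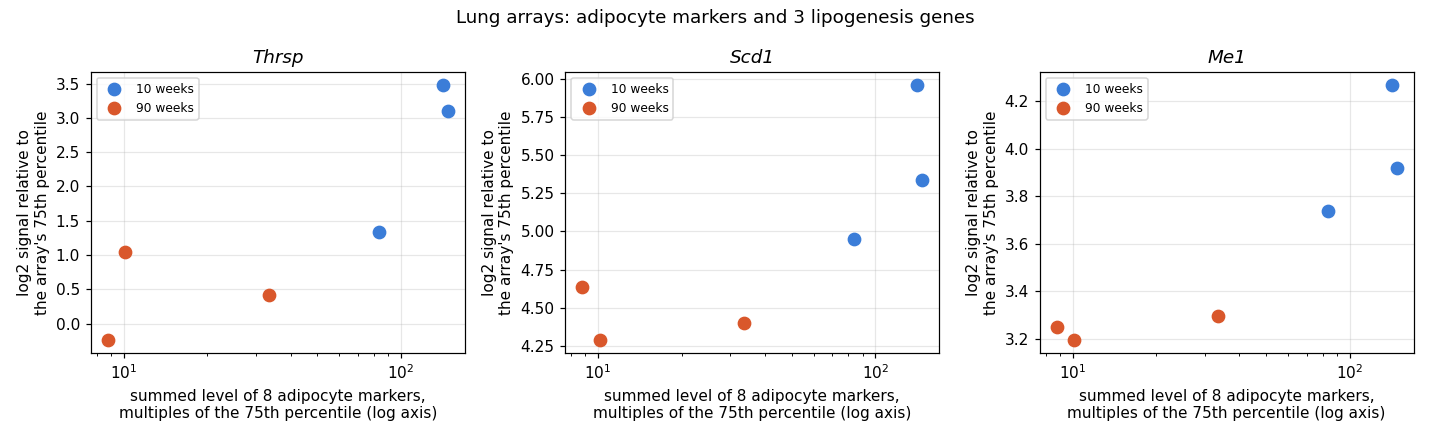
Log2 level of Thrsp, Scd1 and Me1 (vertical axes) against the summed level of 8 adipocyte markers in multiples of the array's 75th percentile (horizontal log axes) on the 6 lung arrays, blue for 10 weeks and orange for 90 weeks. The 3 young lungs have marker sums of 83.7 to 147 and the highest level of each gene, and the 3 aged lungs have sums of 8.77 to 33.5.

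Whether a gene's difference with age itself differed between tissues was tested as an interaction in the fit of all 24 arrays. That fit pools a gene's spread over all groups, so the wide spread of aged WAT is averaged with the smaller spread elsewhere. For Fasn and Acaca the value was more negative in WAT than in liver. The WAT change minus the liver change was -2.72 ± 0.84 for Fasn (adjusted p = 0.0371) and -2.11 ± 0.61 for Acaca (adjusted p = 0.0277), and 2 of 10 genes were called where 14.4% of all genes were and 5.07% in this direction. Fitted in WAT alone, neither change was called, with SEs of 0.99 and 0.71. Both interaction calls were lost on spike-in scaling (adjusted p = 0.0675 and 0.0558). They were also lost when young number 1, 2 or 3 or aged number 1 or 2 was left out of both tissues, with Fasn at -1.62 and Acaca at -1.37 without aged number 1. For Thrsp the lung change minus the kidney change was negative (-2.12 ± 0.65, adjusted p = 0.0305), the 1 gene called for this pair, where 18.3% of all genes were and 7.52% in this direction. That call was lost without young number 1 (-1.59), young number 2 (-1.95), aged number 2 (-1.80) or aged number 3 (-1.93).

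For the other 4 pairs of tissues 0 of the 10 genes were called by limma, and the share of all genes called was 8.45% for kidney and liver, 12.2% for lung and liver, 20.0% for kidney and WAT and 2.79% for lung and WAT. At an unadjusted p under 0.05 the genes were Fasn (2.14 ± 0.84) and Acaca (1.39 ± 0.61) for kidney minus WAT, Fasn (1.96 ± 0.84) for lung minus WAT, Thrsp (-1.76 ± 0.65) for lung minus liver, and none for kidney minus liver. Scd1, which was lower in aged mice in all 4 tissues (means of -1.43 in liver, -1.12 in WAT, -2.21 in kidney and -0.97 in lung), gave no called difference between any pair. Its largest difference was lung minus kidney, 1.23 (95% interval 0.0457 to 2.42, unadjusted p = 0.0426, limma adjusted p = 0.143). The interval for kidney minus WAT ran from -2.28 to 0.10.

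The genes also varied together among mice of the same age and tissue. Taking each array's deviation from the mean of its group, over 24 arrays that share tissue slides and scaling, the 45 pairs of genes had a median Pearson r of 0.55, from -0.58 to 0.96. Fasn and Acaca gave the highest value, 0.96, Elovl6 and Acly gave 0.89, and Fasn and Acly 0.84. Srebf1 had a negative r with all 9 other genes, among them -0.13 with Fasn, -0.52 with Scd1 and -0.58 with Acacb. Over the 18 arrays of the other tissues the median was 0.38, and Fasn and Acaca gave 0.67. There the r of Srebf1 was positive with 4 genes, Fasn (0.24), Acaca (0.28), Me1 (0.097) and Mlxipl (0.0016), and negative with 5, from -0.036 with Acly to -0.74 with Acacb.

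Among all 19259 genes with a symbol, those whose deviations were most like the mean of the 10 were Echdc1, which degrades ethylmalonyl-CoA (r = 0.95), Slc25a1, the mitochondrial citrate carrier (0.94), Aldh4a1, a mitochondrial enzyme of proline breakdown (0.92), Fam210b (0.90) and Mpc2, a subunit of the mitochondrial pyruvate carrier (0.89). Over the 18 arrays without WAT these values were 0.86, 0.83, 0.76, 0.80 and 0.70. They describe these arrays and carry no test.

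The rest of the pathway was followed in 5 lists with 58 genes in all: supply of precursors and NADPH, elongation and desaturation, assembly of glycerides, the SREBP and LXR regulators, and the ChREBP axis of glucose sensing. In the liver 14 of 58 were called, 12 lower and 2 higher, beside 27.4% of all genes (16.8% lower and 10.6% higher). Desaturation and elongation held the largest: Elovl3, an elongase of long saturated chains, was at 6.52, 6.61 and 4.85 in young livers and at -2.45, -3.22 and 3.77 in aged ones, and fell by 6.63 ± 1.73 (adjusted p = 0.0327). As with Me1, aged mouse 4 lay closest to the young livers. Scd3, a second desaturase, fell by 1.81 ± 0.42, Elovl5, an elongase of polyunsaturated chains, by 1.43 ± 0.39, Insig2, which holds SREBP in the endoplasmic reticulum, by 1.41 ± 0.42, and the malate dehydrogenase Mdh1 by 0.99 ± 0.27.

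The 2 genes that rose in the liver were G6pdx, the NADPH-producing first enzyme of the pentose phosphate pathway, and Slc2a4, the insulin-responsive glucose transporter. G6pdx was at 1.23, 1.01 and 1.00 in young livers and at 2.80, 3.61 and 2.52 in aged ones (1.89 ± 0.29, 3.72-fold, adjusted p = 0.00731). Slc2a4 was at -3.07, -3.91 and -3.74 and then at -0.76, -2.52 and 0.30 (2.58 ± 0.66, adjusted p = 0.0314). By list, 4 of 11 precursor and NADPH genes fell and 1 rose, 3 of 10 elongation and desaturation genes fell, 2 of 12 glyceride genes, 1 of 15 regulators, and 2 of 10 genes of the ChREBP axis fell and 1 rose. On spike-in scaling 4 were called lower and 3 higher, and with quantile normalization 5 lower and 2 higher. Leaving out single mice gave between 2 (without young mouse 2 or aged mouse 1) and 21 called (without aged mouse 4), with 3 without young mouse 1, 5 without aged mouse 2 and 7 without young mouse 3.

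In WAT 2 of the 55 pathway genes tested fell, beside 0.566% of all genes called lower and 2.56% in either direction. Scd2, a desaturase of many tissues, was at 5.94, 4.07 and 4.70 in young WAT and at 1.12, 1.48 and 1.85 in aged WAT (-3.42 ± 0.50, 10.7-fold, adjusted p = 0.0294). Mogat1, which makes diglyceride from monoglyceride, was at 2.31, 3.24 and 2.96 and then at 0.15, 1.04 and 0.74 (-2.20 ± 0.34, adjusted p = 0.0352). Aged mouse 3, which kept Fasn and Acaca near young values, was low for both. The median over the pathway genes was -0.39, with 40 means lower and 15 higher. None was called without young mouse 3, aged mouse 1 or aged mouse 2, and 1 was without aged mouse 3.

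In the kidney 43 of 57 pathway genes were called, 40 lower and 3 higher, beside 63.2% of all genes (42.5% lower and 20.7% higher). Mogat2, another monoglyceride acyltransferase, fell by 2.28 ± 0.20, Scd3 by 1.77 ± 0.21 and Slc2a4 by 1.69 ± 0.14, and all 3 had no overlap between ages. Pparg, the nuclear receptor of adipocyte differentiation, rose by 1.09 ± 0.12, Scd4 by 0.88 ± 0.10 and Mid1ip1, a partner and relative of Thrsp, by 0.87 ± 0.10 (adjusted p of 0.000644, 0.000623 and 0.00064). The fall took 9 of 11 precursor and NADPH genes, 6 of 9 elongation and desaturation genes, 10 of 12 glyceride genes, 9 of 15 regulators and 6 of 10 genes of the ChREBP axis. On spike-in scaling the split was 21 lower and 8 higher, and with quantile normalization 31 lower and 8 higher.

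In the lung 4 of 56 pathway genes fell and none rose, beside 2.86% of all genes called lower and 5.57% in either direction. Pnpla3, a lipase of lipid droplets, was at -2.63, -2.67 and -3.41 in young lungs and at -4.86, -4.44 and -4.73 in aged ones (-1.77 ± 0.24, adjusted p = 0.0209), with 1 aged array not well above background. Scd3 fell by 1.04 ± 0.21 (adjusted p = 0.0498), and the acyl-CoA synthetase Acsl1, which activates fatty acids, by 0.71 ± 0.14 (adjusted p = 0.0432). The fourth, Gpam, the acyltransferase of the first step of glyceride synthesis, fell by 0.68 ± 0.10 (adjusted p = 0.0241), and is named after its value was seen. Of these 4 calls, 3 were in glyceride assembly and 1 in desaturation. No call was left without young mouse 1 or 2, 1 without young mouse 3 or aged mouse 3, and 2 without aged mouse 2.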

How the data were processed

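Total RNA of 24 tissue samples was hybridised to 1-colour (Cy3) mouse arrays. The authors scanned the arrays and deposited, per the file headers, intensity values made with Agilent Feature Extraction 11.0.1.1, in which the processed signal is already background-corrected. The study's methods name a human kit, whereas the file headers carry a mouse design with mm9 coordinates. From there the log2 processed signal minus the 75th percentile of each array was computed, after 1841 outlier spots were left out, and spots of a probe were averaged. Probes were named through their RefSeq accession, which gave a symbol for 32994 of 56605 probes (58.3%).

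Ages were compared within each tissue with limma 3.58.1 in R 4.3.3 over all genes whose probe was well above background on at least 3 of 6 arrays, and tissues in a fit of all 24 arrays. Called means a Benjamini-Hochberg adjusted p under 0.05 over all genes tested, and errors of changes are SEs. The p-values rest on the spread between mice, 3 in each group, which limma moderates with that of all genes. An age test within a tissue uses the spread of that tissue. The fit of all 24 arrays pools a gene's spread over all groups. An exact permutation test of 3 against 3 cannot go below 0.1. On simulated data, changes of 1 and 2 on the log2 scale were recovered for 21% and 60% of changed genes in liver and 1% and 46% in WAT. The shares were 56% and 91% in kidney, and 29% and 78% in lung. The simulation changed only 100 genes of each size and gave both ages the same spread. In the data far more genes were called in liver (27.4%) and kidney (63.2%), and the members spread more widely in aged WAT. The recovered shares therefore do not carry over to the members. The number of arrays limits the precision.

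Named genes are the 10 members, the called pathway genes with the largest change (up to 5 in each direction in liver and WAT, 3 in kidney and lung), and the 5 genes most like the members' mean. The members and lists were chosen with earlier results of these data known. In each tissue 16 alternatives were run: background correction (normexp), quantile, median and spike-in scaling, no filter, other probe choices, a fit of all arrays, a replicate block, the methods' t-test and leaving out each mouse. Slide as a block was not run, since each tissue lies on 1 slide. Computation also used python 3.11.15, pandas 2.3.3 and matplotlib 3.10.9.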

Additional observations from a re-analysis of the deposited data

Results flagged for a closer look

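For 3 values the change with age differed between tissues by an interaction test in the limma fit of all 24 arrays. The change of Fasn in WAT minus that in liver was -2.72 (95% interval -4.47 to -0.96, adjusted p = 0.0371), and that of Acaca was -2.11 (-3.39 to -0.83, adjusted p = 0.0277). The fit pools the spread over all groups, and within WAT alone neither change was called (limma, adjusted p = 0.251 and 0.3). In WAT, aged mice 1 and 2 were below all young mice for both genes, while aged mouse 3 was at 8.52 and 6.28. The change of Thrsp in lung minus that in kidney was -2.12 (-3.50 to -0.75, adjusted p = 0.0305), and the lungs differed in adipocyte markers as well. The part of these markers was not tested.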

How the results depend on the processing

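With 3 mice in each group, several counts of called genes moved with the setting, and the cause was not tested. In the liver 1 of 10 members was called, against 2 with normexp, 2 in the fit of all 24 arrays, 0 with the replicate block and 0 by the methods' t-test, and 0 to 3 when single mice were left out. Quantile normalization called 1 higher (Acaca) and 0 lower. The liver pathway count of 14 became 7 under quantile normalization, 7 on spike-in scaling, 23 with all 24 arrays, 3 with the replicate block and 5 by the methods' t-test, and 2 to 21 without single mice. In WAT the members' 0 became 2 with all 24 arrays (0 to 1 without single mice), and the pathway's 2 became 1 without the filter, 20 with all 24 arrays, 1 with the block and 0 by the methods' t-test (0 to 2 without single mice). In kidney the members' 5 became 2 with all 24 arrays (Scd1 and Me1, and 5 to 5 without single mice), and the pathway's 43 became 25 (37 to 44). In lung the members' 0 became 1 with normexp, median centring, the mean of probes and all 24 arrays (0 to 0 without single mice), and the pathway's 4 became 2 on spike-in scaling, and 0 without the filter, with all 24 arrays, with the block and by the methods' t-test (0 to 3). The 2 members that differed between WAT and liver became 0 on spike-in scaling and 0 to 4 without single numbers. The 16 neighbouring levels became 13 to 14 when a young number was left out.

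Within a tissue, young and aged mice of the same number are different animals. Their deviations from the group mean had correlations from -0.16 to 0.18. These values do not bear on whether 1 mouse gave several tissues, which is not known. With the block the counts in kidney (5), WAT (0), lung (0) and between WAT and liver (2) did not move. In liver, young mouse 3 and aged mouse 4 share their number with no liver of the other age. The age comparison in liver with the block therefore rests on mice 1 and 2 of each age. Its lower counts there reflect fewer mice as well as the block.

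The following values turned in sign. Acacb in liver became -0.0185 with median centring and -0.25 with the mean of probes (-0.38 to 0.45 without single mice). With the replicate block, which in liver rests on mice 1 and 2 of each age only, it became -0.66. In kidney, Fasn became 0.0128 with quantile normalization and 0.0456 on spike-in scaling, Acaca 0.22 on spike-in scaling, Acly -0.00704 with median centring, Elovl6 0.0020 and 0.36, and Thrsp 0.27 on spike-in scaling and 0.00567 with the mean of probes. Srebf1 in kidney became 0.00025 with normexp, 0.21 with quantile normalization and 0.32 on spike-in scaling. Mlxipl in lung became 0.035 with the brightest probe of the tissue. For WAT minus liver, Scd1 became -0.44 with quantile normalization, and Mlxipl -0.14 with normexp, -0.32 with quantile normalization and -0.0878 on spike-in scaling. Levels of liver minus lung became -0.00856 and -0.39 for Acly and -0.074 for Srebf1. Without single mice the ranges were -0.47 to 0.71 for Acacb and -0.94 to 0.0868 for Mlxipl in WAT, -0.0621 to 0.0305 for Elovl6, -0.16 to 0.0254 for Srebf1 and -0.30 to 0.092 for Thrsp in kidney, and -0.22 to 0.038 for Acacb and -0.50 to 0.0537 for Mlxipl in lung. For WAT minus liver they were -0.47 to 0.63 for Acacb (-0.34 without young number 1), -0.0695 to 0.64 for Scd1, -0.24 to 1.53 for Me1, -0.76 to 0.0358 for Srebf1 and -0.55 to 0.41 for Mlxipl (-0.26 without young number 1 and -0.0527 without aged number 2). Of the values of single changes under alternatives, 580 kept direction and side of the threshold, 31 turned, 12 lost a call and 17 gained one.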

Other observations

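Other probes of the same genes gave these changes with age. The 3 other probes of Acaca differed by -1.80, -1.77 and -1.75 in WAT, beside -1.55 for the probe used. In liver they differed by 0.19, 0.24 and 0.21, beside 0.56, and in lung by -0.58, -0.69 and -0.23, beside -0.53. In kidney they differed by -0.27, 0.57 (well above background on 2 of 6 arrays) and 0.19, beside -0.16. In liver, WAT, kidney and lung the second probe of Mlxipl differed by 0.03, -0.06, -0.15 and 0.03, beside -0.39, -0.38, -0.74 and -0.15. That of Acacb differed by -0.49, -0.11, -0.65 and -0.10, beside 0.00, 0.22, -0.95 and -0.07. The second probe of Me1 differed by -2.64 in liver, -1.85 in WAT, -1.71 in kidney and -0.78 in lung, and that of Thrsp by -0.79, -1.30, 0.12 and -2.42. The second probe of Acly differed by -0.84, -1.63, 0.21 and 0.09, so that its direction in lung was not that of the probe used (-0.34).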
